A study of Mus musculus with 8 samples.

Results

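The trophectoderm transcription factors examined here are 10 genes, Cdx2, Eomes, Gata2, Gata3, Tfap2a, Tfap2c, Elf5, Tead4, Hand1 and Ascl2. They were chosen by symbol, through the Ensembl identifiers of the expression tables, and all 10 were listed in both tables, among 19485 genes for morulae, 20348 for blastocysts and 21517 in all. The samples were pools of 20 whole mouse embryos, either with knockdown (KD) of Smarca5, also called Snf2h, or from the control group labelled NC. Morulae, compacted balls of cells without a cavity, and blastocysts, whose outer trophectoderm encloses a cavity and the inner cell mass, were each sampled as 2 NC and 2 KD libraries of polyadenylated RNA, 8 in all. Embryonic days 3.75 and 4.25 are named for the series without tying a day to a stage, and neither strain, the means of knockdown nor the meaning of NC is given in the sources used here. The labels do not tell whether replicate pools were collected from different litters. A p-value here therefore reflects how much these pools varied, which could be technical.

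The trophectoderm is the first epithelium of the embryo and later forms the placenta. In outer cells, where the Hippo pathway is off, YAP1 enters the nucleus and binds TEAD4, which turns on Cdx2 and, in parallel, Gata3, while the AP-2 protein TFAP2C is already present from the cleavage stages. Eomes and Elf5 act with them to maintain trophoblast stem cells, and Tfap2a is the paralog of Tfap2c. Hand1, Gata2 and Ascl2 are best known from the differentiation of giant cells and spongiotrophoblast. SMARCA5 is the ATPase of ISWI remodelers, which slide and space nucleosomes. Because whole embryos were pooled, fewer trophectoderm cells and less RNA per cell cannot be told apart in any value below.

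Promoter sequence was matched by symbol in a RefSeq table (GRCm38.p6) for 7 of the 10 genes, with 10 start sites in all; Tfap2c, Tead4 and Hand1 had no entry. The 250 bases before each start were searched on both strands for the octamer ATGCAAAT bound by POU factors such as OCT4, the AP-2 motif GCCNNNGGC, the TEAD motif GGAATG and the GATA motif AGATAA. The TEAD and octamer motifs can overlap in the letters ATG. Cdx2 and Gata2 are shown because Cdx2 had the highest level per kb and Gata2 the widest spread between morula libraries. Motif matches are in capitals, and bases that GENCODE vM21 counts as exon (21 of 250 for Cdx2) are left out.
Cdx2, chr5:147307271-147307499, minus strand: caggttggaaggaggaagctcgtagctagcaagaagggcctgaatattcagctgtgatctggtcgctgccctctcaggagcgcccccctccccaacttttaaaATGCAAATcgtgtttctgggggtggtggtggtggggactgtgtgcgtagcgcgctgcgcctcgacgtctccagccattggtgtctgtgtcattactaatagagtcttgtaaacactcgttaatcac
Gata2, chr6:88193641-88193890, plus strand, the upstream of its 2 listed starts: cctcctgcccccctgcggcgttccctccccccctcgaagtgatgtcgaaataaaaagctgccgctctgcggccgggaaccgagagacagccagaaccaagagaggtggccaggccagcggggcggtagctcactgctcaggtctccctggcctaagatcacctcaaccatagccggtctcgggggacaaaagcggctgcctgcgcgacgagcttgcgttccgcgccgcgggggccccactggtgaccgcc
The Cdx2 stretch of 229 bases held 1 octamer, at position 104 counted from its 5′ end, and none of these letters occurred in the Gata2 stretch of 250 bases. Among all 32851 windows of the table, 1.601% held the octamer, 13.7% the AP-2 motif, 12.6% the TEAD motif and 9.99% the GATA motif. Among the 10 windows of these genes, 1 held the octamer, 3 the AP-2 motif (1 each of Cdx2, Gata2 and Gata3), 2 the TEAD motif (1 each of Gata2 and Elf5) and 0 the GATA motif. The Cdx2 match to the AP-2 motif was not within the printed bases, and both Gata2 matches were before its other start. A match is a description of the letters only.

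Values are the normalized abundance that the authors deposited, scaled within a stage and not between stages. Smarca5 itself was 9678 and 9760 in NC and 501 and 470 in KD morulae, and 7000 and 8283 in NC and 906 and 855 in KD blastocysts. It fell at both stages (limma, log2 fold change -4.32, adjusted p = 1.88e-04, and -3.11, adjusted p = 5.93e-04). A step was taken for each library as the difference between the 2 most frequent values of genes seen in that library alone. Column sums divided by this step gave rough depths of 13958029 to 23306332 reads per library. Most low genes seen in all 4 libraries of a stage did not lie on whole steps, so these depths are approximate. As markers of whole embryos, Pou5f1 and Krt18 were present at both stages. Pou5f1, the pluripotency factor OCT4, was at the 99.6 percentile or higher of listed genes in every library. The trophectoderm keratin Krt18 had a mean of 6260 ± 280 in NC morulae and 25602 ± 860 in NC blastocysts (SD, n = 2). Fold changes are KD minus NC on the log2(value + 1) scale, where low genes appear to differ less than they do. Limma was run on the 13404 morula and 13651 blastocyst genes with a mean of at least 10, with Benjamini-Hochberg adjustment over all of them and a threshold of 0.05. With 2 libraries against 2, a two-sided permutation test cannot go below 0.333, so none is given.

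None of the 10 factors passed the test, which has no term for the replicate number, at either stage. With a block for that number, which the labels do not establish as a pairing, limma called Gata3 and Hand1 in morulae. In blastocysts the block called Gata2, Gata3 and Hand1. Over all genes it called 892 in morulae and 1208 in blastocysts. Calls below are without the block unless it is named. In KD blastocysts 5 of the 10 factors (Cdx2, Gata2, Gata3, Tead4 and Hand1) had both KD libraries above both NC libraries, and none had both below. In morulae only Ascl2 lay above and Tfap2c and Elf5 lay below, and the others overlapped. The means on the log2 scale were higher in KD for 6 of 10 factors in morulae and 7 of 9 in blastocysts, as for 49.2% and 50.3% of all tested genes. In morulae 0 of 10 were called by limma, where 0.00746% of all tested genes were, and 1 of 10 (Tfap2c) had an unadjusted p under 0.05, where 10.4% of all genes did. In blastocysts 0 of the 9 that could be tested were called (0.0879% of all genes, 0.0366% higher and 0.0513% lower), and 4 (Cdx2, Gata2, Gata3 and Hand1) had an unadjusted p under 0.05, against 17.6% of all genes. Of all tested blastocyst genes, 24.6% lay above and 24.9% below without overlap, and in morulae 20.7% and 21.2%. Without regard to direction, 5 of 9 factors in blastocysts and 3 of 10 in morulae did not overlap, beside 49.5% and 41.9% of all genes. The median log2 fold change of the tested members was 0.21 in morulae and 0.30 in blastocysts, beside -0.01 and 0.00 over all tested genes.

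**Figure D1:**
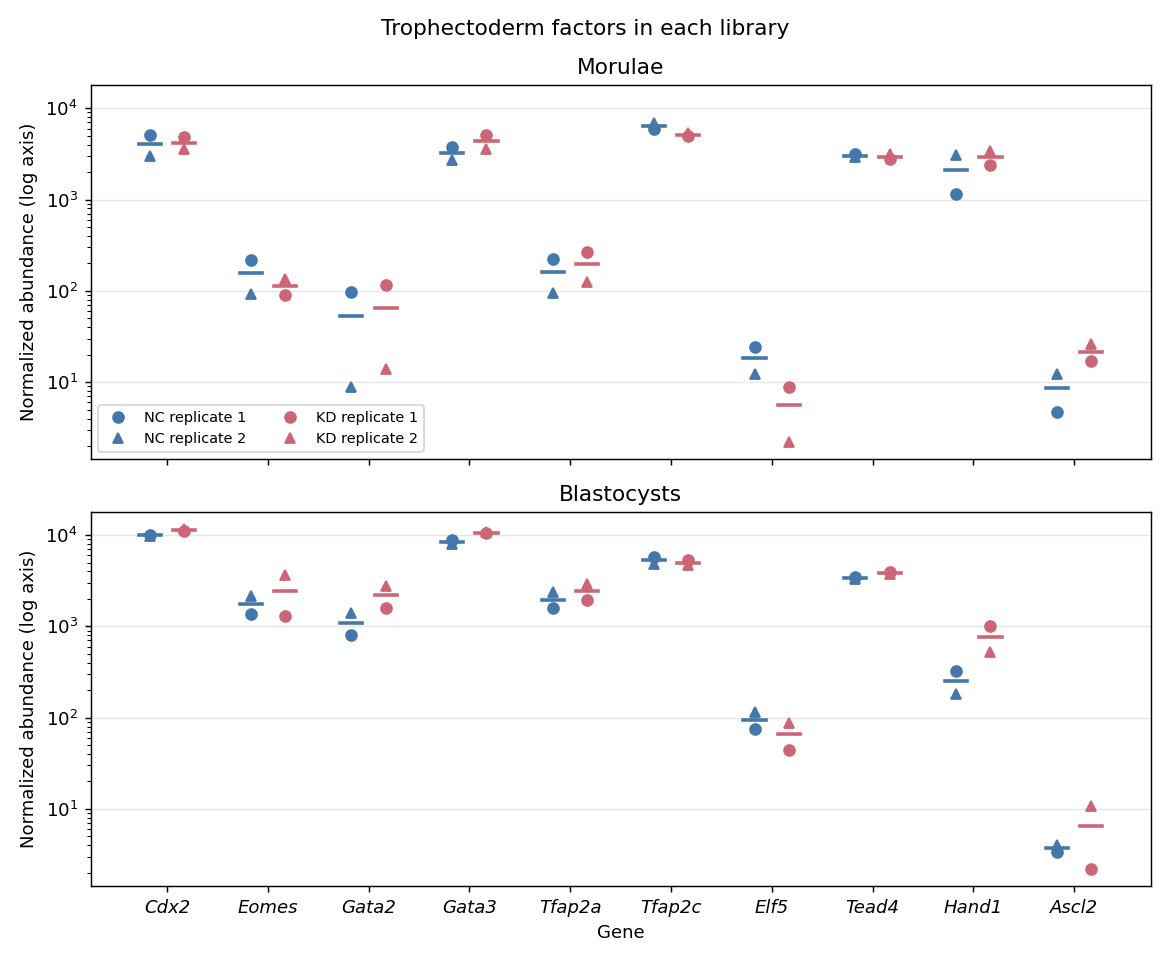
Normalized abundance (log axis) of each factor in each library, morulae above and blastocysts below; blue is NC, red is KD, circles are replicate 1, triangles replicate 2 and lines the mean of a group. In blastocysts both red points lie above both blue points for Cdx2, Gata2, Gata3, Tead4 and Hand1, while in morulae the 2 points of a group are far apart for Gata2.

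**Figure D2:**
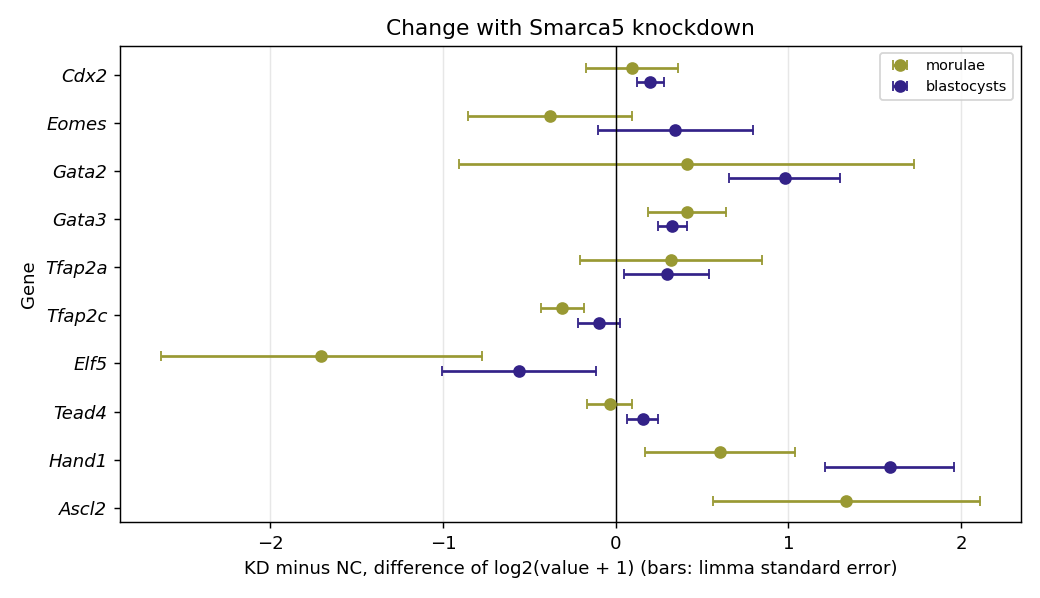
KD minus NC as a difference of log2(value + 1) for each factor, with limma standard errors as bars, in morulae and blastocysts; Ascl2 was tested in morulae only. The largest blastocyst difference is that of Hand1 (1.59), and the bar of Gata2 in morulae spans both sides of 0.

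Tead4, the DNA-binding partner of YAP1 at the top of the network, lies on mm10 chromosome 6, 128224288 to 128300823, minus strand (ENSMUSG00000030353). In morulae it was 3128 and 2913 in NC and 2754 and 3155 in KD. The groups overlapped, the log2 fold change was -0.03 (SE 0.13, limma adjusted p = 0.957), and its sign turned with quantile normalization (0.00727), without NC replicate 1 (0.02) and without KD replicate 1 (0.06). In blastocysts Tead4 was 3485 and 3321 in NC and 3890 and 3700 in KD. Both KD libraries were higher, by 0.16 on the log2 scale (SE 0.09, adjusted p = 0.420).

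Cdx2, the homeobox factor that holds outer cells in the trophectoderm lineage, lies on chromosome 5, 147300805 to 147307270, minus strand (ENSMUSG00000029646). Its morula values were 5053 and 2988 in NC and 4815 and 3579 in KD. The KD libraries lay inside the NC range, and NC libraries differed 1.69-fold where the group means differed 1.04-fold (log2 fold change 0.10, SE 0.27, adjusted p = 0.933). The sign depended on single libraries, at -0.28 without NC replicate 2 and -0.12 without KD replicate 1. In blastocysts Cdx2 was 10117 and 9653 in NC and 11024 and 11721 in KD. Here replicates of a group differed by at most 1.06-fold, both KD libraries were higher, and the log2 fold change was 0.20 (SE 0.08, adjusted p = 0.265).

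Gata3, a zinc finger factor turned on by TEAD4 alongside Cdx2, lies on chromosome 2, 9857078 to 9890034, minus strand (ENSMUSG00000015619). Morula values were 3786 and 2735 in NC and 5138 and 3565 in KD, and KD replicate 2 lay below NC replicate 1 (log2 fold change 0.41, SE 0.23, adjusted p = 0.587). Without NC replicate 2 the value was 0.18 and without KD replicate 1 it was 0.15. Blastocyst values were 8790 and 8024 in NC and 10401 and 10674 in KD. All blastocyst KD values were above the NC values, and the group means, 8407 ± 541 and 10538 ± 193 (SD, n = 2), differed 1.25-fold (log2 fold change 0.33, SE 0.08, adjusted p = 0.141). In GENCODE, 77 exonic bases of Gata3 are shared with 9230102O04Rik on the same strand and 155 with an antisense gene. The sources used here do not say whether reads were assigned by strand.

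Gata2, the paralog of Gata3 that with it drives placental hormone genes, lies on chromosome 6, 88193891 to 88207032, plus strand (ENSMUSG00000015053). It spread most between morula libraries, at 98.3 and 8.88 in NC and 115 and 14.0 in KD. Replicate 1 was high and replicate 2 low in both groups, by 11.1-fold in NC and 8.20-fold in KD. The median tested gene differed 1.22-fold and 1.20-fold. The replicate 2 values of Gata2 were worth only 8.6 reads in NC and 12.9 in KD at each library's step. The group means differed 1.20-fold (log2 fold change 0.41, SE 1.32, adjusted p = 0.945), and the log2 fold change was -1.25 without NC replicate 2 and -1.06 without KD replicate 1. In blastocysts Gata2 was 813 and 1388 in NC and 1579 and 2776 in KD. There both KD libraries were above both NC libraries, KD replicate 1 by a narrow margin, with a log2 fold change of 0.98 (SE 0.32, adjusted p = 0.201). The value was 0.59 without NC replicate 1 and 0.57 without KD replicate 2.

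Tfap2c, the AP-2 factor present from cleavage onward and linked to polarity and junction genes, lies on chromosome 2, 172549593 to 172558622, plus strand (ENSMUSG00000028640). Morula values were 5922 and 6812 in NC and 4931 and 5325 in KD. Both KD libraries were below NC (log2 fold change -0.31, SE 0.12, limma adjusted p = 0.474), without passing. The fold between morula group means (1.24) was larger than the fold between replicates in both groups (1.15 in NC and 1.08 in KD). This held for 1 of the 10 factors in morulae and for 5 of 10 in blastocysts (Cdx2, Gata2, Gata3, Tead4 and Hand1). The share of all tested genes was not computed, so these counts cannot be read as a result about the factors. The same 5 blastocyst factors were those whose KD and NC libraries did not overlap, beside 49.5% of all tested genes. The blastocyst values of Tfap2c were 5811 and 4816 in NC and 5269 and 4651 in KD. They overlapped (log2 fold change -0.10, SE 0.12, adjusted p = 0.724), and without NC replicate 1 the log2 value was 0.04.

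Tfap2a, its paralog, lies on chromosome 13, 40715302 to 40738376, minus strand (ENSMUSG00000021359). Its exons share 380, 265 and 73 bases with 3 antisense genes, whose reads cannot be told apart from its own without strand. Morula values were 224 and 94.8 in NC and 267 and 124 in KD. Replicate 1 exceeded replicate 2 more than 2.15-fold in both groups, while the group means differed 1.23-fold (log2 fold change 0.32, SE 0.53, adjusted p = 0.880). Without NC replicate 2 the value was -0.30 and without KD replicate 1 it was -0.23. In blastocysts Tfap2a was 1574 and 2360 in NC and 1935 and 2890 in KD, and the groups overlapped (log2 fold change 0.30, SE 0.24, adjusted p = 0.573). The value was 0.00306 without NC replicate 1 and 0.00609 without KD replicate 2, but 0.59 without NC replicate 2.

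Eomes, a T-box factor needed for trophoblast stem cells, lies on chromosome 9, 118478212 to 118486132, plus strand (ENSMUSG00000032446), with 118 exonic bases shared with an antisense gene. Morula values were 220 and 93.6 in NC and 89.9 and 135 in KD. They overlapped, with a log2 fold change of -0.38 (SE 0.47, adjusted p = 0.833) that was 0.23 without NC replicate 1. In blastocysts Eomes was 1364 and 2148 in NC and 1311 and 3610 in KD. Here KD replicate 1 was the lowest library and KD replicate 2 the highest (log2 fold change 0.35, SE 0.45, adjusted p = 0.731), and without KD replicate 2 the value was -0.38.

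Elf5, an ETS factor that acts with Cdx2 and Eomes in trophoblast stem cells, was among the 2 lowest members. It lies on chromosome 2, 103411688 to 103450989, plus strand (ENSMUSG00000027186). Morula values were 24.4 and 12.3 in NC and 8.96 and 2.19 in KD. Both KD libraries were below NC, but the KD libraries alone differed 4.09-fold, and the lowest value corresponds to 2 reads at that library's step (log2 fold change -1.70, SE 0.93, adjusted p = 0.584). In blastocysts Elf5 was 74.5 and 114 in NC and 44.0 and 88.1 in KD, with overlap (log2 fold change -0.56, SE 0.45, adjusted p = 0.558), and without KD replicate 1 the value was -0.07. The mean was thus lower in KD at both stages, and neither difference passed.

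Hand1, a basic helix-loop-helix factor of giant cell differentiation, had the largest blastocyst difference of the tested members. It lies on chromosome 11, 57828705 to 57832818, minus strand (ENSMUSG00000037335). In blastocysts it was 322 and 183 in NC and 1012 and 529 in KD. Both KD libraries were above both NC libraries and the group means differed 3.05-fold, against 1.76-fold between NC and 1.91-fold between KD replicates (log2 fold change 1.59, SE 0.37, adjusted p = 0.124). Leaving out single libraries gave 1.12 (without KD replicate 1) to 2.05 (without KD replicate 2). In morulae Hand1 was 1156 and 3043 in NC and 2369 and 3428 in KD. NC replicate 1 was the lowest library, and the groups overlapped in that NC replicate 2 exceeded KD replicate 1 (log2 fold change 0.60, SE 0.43, adjusted p = 0.682), and without NC replicate 1 the value was -0.09.

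Ascl2, an imprinted basic helix-loop-helix factor of the spongiotrophoblast, lies on chromosome 7, 142966829 to 142969264, minus strand (ENSMUSG00000009248). It was near the lower limit of the tables, at 4.76 and 12.4 in NC and 16.95 and 26.4 in KD morulae. Both KD libraries were higher there (log2 fold change 1.33, SE 0.77, adjusted p = 0.605), on values worth 5.1 to 24.4 reads at each library's step, and without NC replicate 1 the value was 0.72. In blastocysts it was 3.38 and 4.05 in NC and 2.20 and 10.8 in KD, which was under the mean of 10 needed for the test. At that level a fold is given only for the setting without a filter, among the alternatives at the end.

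Whether the KD difference changed from morula to blastocyst was tested for the 9 factors measured above the limit in both tables, in 1 limma fit of all 8 libraries. None passed (0 of 9 at an adjusted or an unadjusted p under 0.05; 0% and 5.34% of 12875 genes). The estimates ran from -0.08 for Gata3 to 1.14 for Elf5, and leaving out single libraries changed the sign for Cdx2, Eomes, Gata2, Gata3 and Tfap2a. Hand1 had 0.98 (SE 0.68, adjusted p = 0.929), and Eomes, with a mean lower in KD morulae and higher in KD blastocysts, had 0.73 (SE 0.74, adjusted p = 0.942).

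Per kb of exon, 5 factors were abundant and 5 scarce in morulae, and in blastocysts the levels ran down in smaller steps to Hand1, with Elf5 and Ascl2 far lower. In NC morulae the order was Cdx2 (1778 normalized abundance per kb), Tfap2c (1731), Hand1 (1051), Tead4 (840) and Gata3 (820), then Eomes (37.8), Tfap2a (32.5), Gata2 (9.93), Ascl2 (5.29) and Elf5 (3.12). Of neighbours in this order, Cdx2 and Tfap2c, Hand1 and Tead4, Tead4 and Gata3, Eomes and Tfap2a, Gata2 and Ascl2, and Ascl2 and Elf5 overlapped between libraries, and the others did not. The widest step was from Gata3 to Eomes, without overlap, and in KD morulae it was from Tead4 (821) to Tfap2a (39.9), also without overlap. With the longest transcript in place of all exons, Tfap2c came before Cdx2, Gata3 before Tead4, Tfap2a before Eomes and Elf5 before Ascl2 in NC morulae, and in blastocysts of both groups Tfap2a came before Eomes.

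In NC blastocysts the order was Cdx2 (4372 per kb), Gata3 (2113), Tfap2c (1444), Tead4 (946), Eomes (423), Tfap2a (401), Gata2 (204), Hand1 (127), Elf5 (16.1) and Ascl2 (2.29). Only Eomes with Tfap2a and Gata2 with Hand1 overlapped. KD blastocysts had the same order per kb of exon, and there Tfap2a and Gata2 overlapped as well. Hand1 thus had rank 3 of 10 in NC morulae and rank 8 in NC blastocysts, and Gata3 had ranks 5 and 2.

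**Figure D3:**
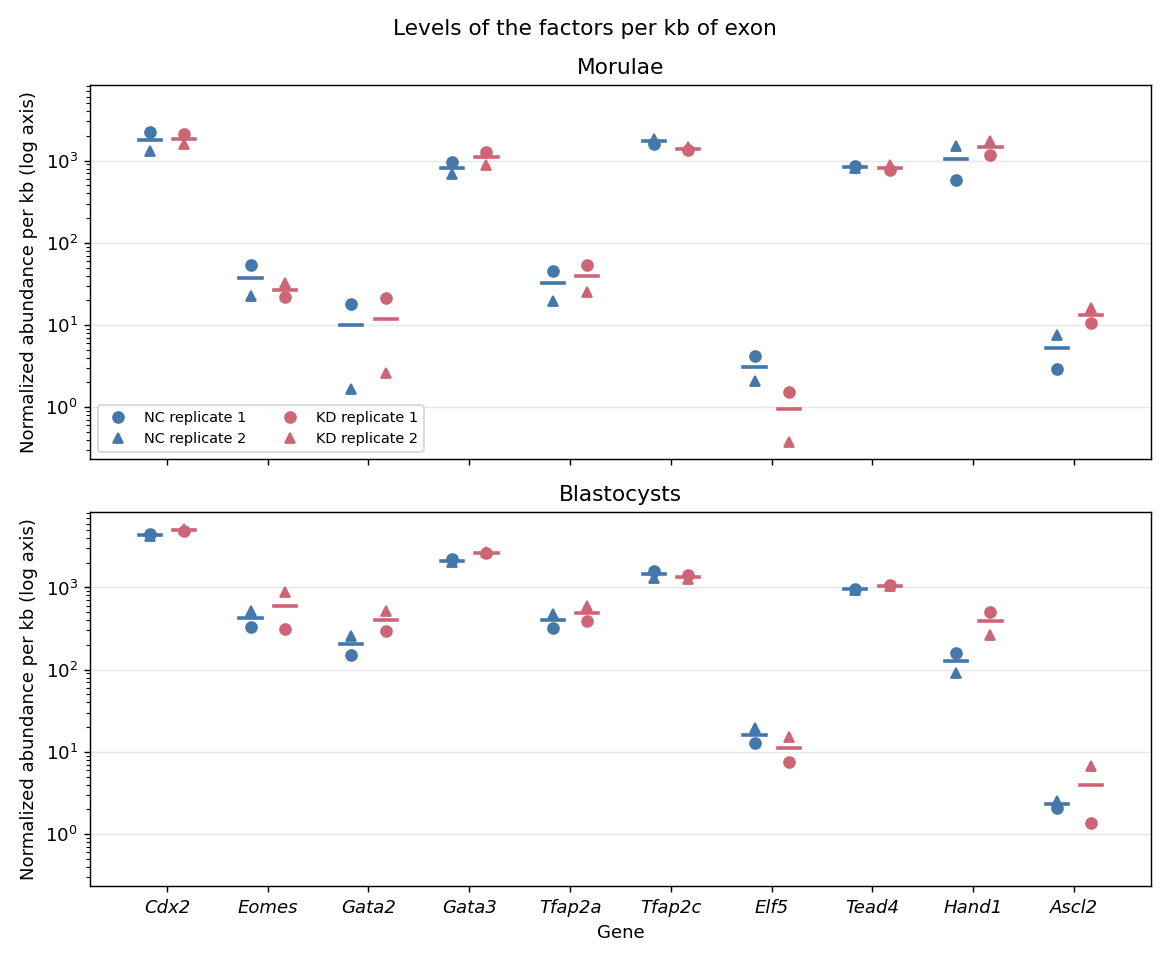
Normalized abundance per kb of exon (log axis) for the 10 factors in each library, drawn as in the plot of values by library. In NC morulae 5 factors sit at 820 to 1778 per kb on average and the others at 37.8 or less, while in NC blastocysts Hand1 averages 127 and Elf5 and Ascl2 16.1 and 2.29.

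Since the 2 stages were scaled separately, each factor was also placed among the listed genes of its own library, without a test. Gata2 was at the 30.8 and 51.7 percentiles in NC morulae and at the 75.8 and 84.1 in NC blastocysts. Eomes was at 51.4 to 59.4 and at 83.7 to 89.9, and Tfap2a at 51.5 to 59.6 and at 85.8 to 90.8. Hand1 went the other way, from 82.5 to 93.5 in NC morulae to 56.6 to 62.6 in NC blastocysts, and in KD blastocysts it was at 69.4 to 79.3. Tfap2c (96.1 to 97.6) and Tead4 (93.1 to 94.9) stayed within these narrow ranges over all 8 libraries.

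Ratios of 2 genes within a library do not depend on that scaling if it is the same factor for all genes of a library. The sources used here do not say whether it is. Cdx2 to Pou5f1 was 0.202 and 0.110 in NC and 0.178 and 0.139 in KD morulae, and 0.468 and 0.447 in NC and 0.551 and 0.595 in KD blastocysts. Gata3 to Pou5f1 was 0.406 and 0.371 in NC and 0.520 and 0.542 in KD blastocysts. Both ratios were higher in both KD blastocyst libraries, where the mean of Pou5f1 was 21619 ± 14.6 for NC and 19850 ± 214 for KD (SD, n = 2). Cdx2 to Nanog, another pluripotency gene, was 1.75 and 1.42 in NC and 1.86 and 1.79 in KD blastocysts, so the nearest NC and KD libraries were close. In morulae it was 0.665 and 0.476 in NC and 0.599 and 0.618 in KD, with overlap. Gata3 exceeded Gata2 by 38.5-fold and 308-fold in NC morulae but by 10.8-fold and 5.78-fold in NC blastocysts, and by 6.59-fold and 3.85-fold in KD blastocysts.

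Hand1 to Cdx2 was 0.229 and 1.02 in NC and 0.492 and 0.958 in KD morulae. In blastocysts this ratio was 0.0318 and 0.0190 in NC and 0.0918 and 0.0452 in KD. All 4 blastocyst libraries were below all 4 morula libraries, and both KD blastocyst libraries were above both NC ones.

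**Figure D4:**
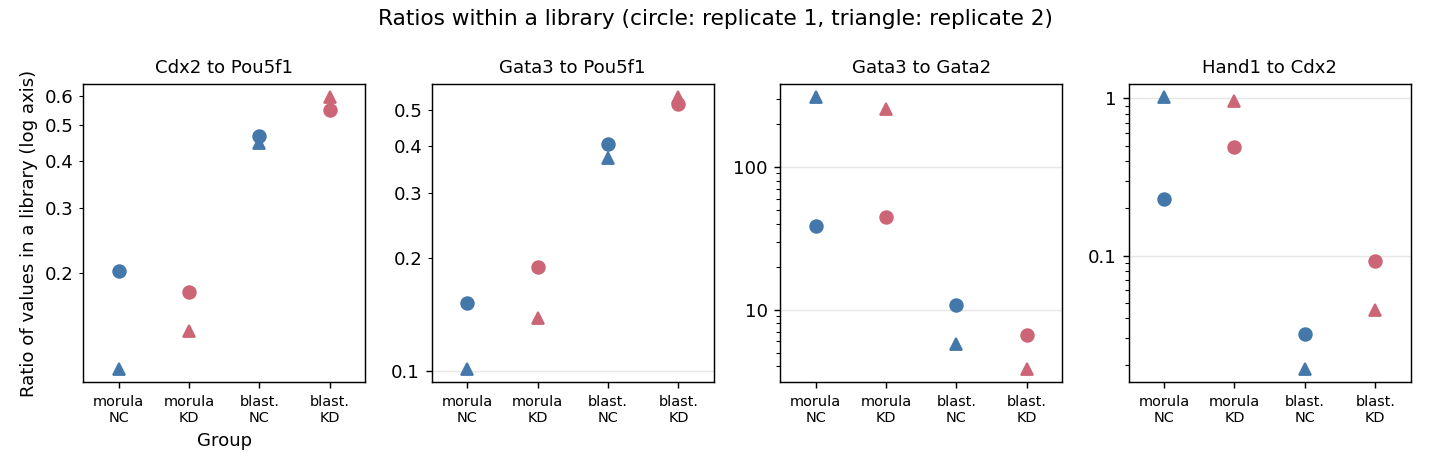
Ratio of 2 genes within each library (log axis) for 4 pairs, by group; blue is NC, red is KD, circles are replicate 1 and triangles replicate 2. Cdx2 to Pou5f1 is 0.110 to 0.202 in morulae and 0.447 to 0.595 in blastocysts, and Hand1 to Cdx2 goes the other way.

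The upstream list held 26 Hippo, Notch, BMP and FGF components and cofactors, all tested, and 0 passed at either stage (9 gene lists beside the 10 factors were examined, and limma called 0 of their members at both stages). Their median log2 fold change was -0.05 in morulae and -0.07 in blastocysts. The smallest p in blastocysts belonged to the angiomotin-like gene Amotl1, at 29.2 and 29.5 in NC and 142 and 153 in KD (log2 fold change 2.29, SE 0.33, adjusted p = 0.0707). Cited2, a transcriptional coregulator, was 455 and 443 in NC and 888 and 1396 in KD (1.31, adjusted p = 0.0850), and the Hippo kinase gene Lats2 was 860 and 818 and 1220 and 1238 (0.55, adjusted p = 0.110). In all 3, named for their small p, the KD libraries lay above NC. Of the 26 genes, 8 lay above and 6 below in blastocysts (24.6% and 24.9% of all genes). There 11 had a higher and 15 a lower mean in KD. In morulae 5 lay above and 6 below (20.7% and 21.2% of all genes). In morulae the angiomotin-like gene Amotl2 (0.67), Arid3a, a DNA-binding factor of trophoblast (0.77), and the kinase gene Rock2 (-0.66) had the smallest p (each adjusted p = 0.362).

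Of 25 other trophoblast regulators 20 were tested at each stage, with medians of -0.09 in morulae and 0.04 in blastocysts. Ets2, an ETS factor of the extraembryonic ectoderm, was 276 and 249 in NC and 148 and 124 in KD blastocysts (-0.95 on the log2 scale, adjusted p = 0.128). Esrrb, an orphan nuclear receptor, was also lower in both KD blastocyst libraries (-0.62, adjusted p = 0.143), and Cdx1, the paralog of Cdx2, was higher (1.51, adjusted p = 0.185). In morulae the epithelial factor Grhl2 was 2246 and 2634 in NC and 1455 and 1713 in KD (-0.62, adjusted p = 0.362), Sox21 was lower too (-0.61, adjusted p = 0.498), and Sp6 was higher (0.83, adjusted p = 0.403).

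Structural and transport genes of the trophectoderm included no called member. Of 28 tested, 11 lay below and 6 above in KD morulae (21.2% and 20.7% of all genes), and 5 below and 13 above in KD blastocysts (24.9% and 24.6%). Medians were -0.11 and 0.19. Krt18 was 6458 and 6062 in NC and 4489 and 4835 in KD morulae, but 24994 and 26211 in NC and 28953 and 33884 in KD blastocysts. Its difference between stages was 0.72 (SE 0.14, limma adjusted p = 0.674), and that of the desmosome gene Dsp, lower in KD morulae (-0.60, adjusted p = 0.362), was 0.82 (adjusted p = 0.619), so neither passed. The keratin Krt7 (0.46, adjusted p = 0.182) and the sodium pump subunit Atp1b1 (0.47, adjusted p = 0.142) were higher in both KD blastocyst libraries, and the desmosome gene Pkp2 was lower in both KD morula libraries (-0.72, adjusted p = 0.362).

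Of 18 genes of the ectoplacental cone and giant cells, to which Hand1, Gata2 and Ascl2 are linked, 9 were tested at each stage. In morulae 4 had a higher and 5 a lower mean in KD, with a median of -0.34 on the log2 scale. There 2 lay above and 2 below without overlap (20.7% and 21.2% of all genes). In blastocysts 6 had a higher and 3 a lower mean in KD, with a median of 0.24. There 1 lay above and 1 below (24.6% and 24.9% of all genes). Among the giant cell genes Prl3d1, Prl2c2, Ctsq and Hsd3b6 and the spongiotrophoblast gene Tpbpa, none was listed in either table. Cdkn1c, an imprinted cell cycle inhibitor of trophoblast, was 56.2 and 111 in NC and 53.1 and 44.8 in KD blastocysts (-0.68 on the log2 scale, adjusted p = 0.458). Plac1 was 39.97 and 65.9 in NC and 55.0 and 114 in KD (0.62, adjusted p = 0.549), and the surface protein gene Plet1 had 0.17 (adjusted p = 0.504). In morulae Plet1 (-0.72, adjusted p = 0.362), Cdkn1c (-1.12, adjusted p = 0.480) and the placental lactogen gene Prl3b1 (-0.58, adjusted p = 0.769) had lower means in KD.

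Epiblast genes were mostly on the lower side in KD blastocysts. Of 19 tested epiblast and pluripotency genes, 12 had both KD libraries below NC and 1 above (24.9% and 24.6% of all genes), with a median of -0.40. In morulae 3 of 18 lay below and 2 above (21.2% and 20.7% of all genes), with a median of -0.15. Tdh, a threonine dehydrogenase of pluripotent cells, was 474 and 583 in NC and 234 and 120 in KD blastocysts (-1.64, adjusted p = 0.101). Utf1, an epiblast chromatin factor, was lower there (-0.56, adjusted p = 0.110) but higher in KD morulae (0.44, adjusted p = 0.403), a difference of -1.004 that did not pass (adjusted p = 0.579). Etv5, an ETS factor (-0.64, adjusted p = 0.124), was also lower in KD blastocysts, and Klf4 (-1.28, adjusted p = 0.305) and Tfcp2l1 (-0.38, adjusted p = 0.451) in KD morulae.

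Of 14 primitive endoderm genes tested in blastocysts 8 lay above and 0 below (24.6% and 24.9% of all genes), with a median of 0.60. Of 12 in morulae 7 lay above and 1 below (20.7% and 21.2%), with a median of 0.62. The collagen chaperone Serpinh1 was 1.24 higher (adjusted p = 0.0996), the endocytic receptor subunit Amn 1.95 (adjusted p = 0.1000) and the Wnt inhibitor Dkk1 1.42 (adjusted p = 0.200) in KD blastocysts on the log2 scale. In morulae Serpinh1 had 2.84 (adjusted p = 0.303), Dkk1 2.97 and Pdgfra 1.14 (both adjusted p = 0.362).

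Markers of cells outside the embryo were measured beside the factors. Of 15 cumulus, granulosa and stromal markers 7 were listed in morulae and 10 in blastocysts. Their summed abundance was 112 and 258 in NC and 347 and 305 in KD morulae, and 207 and 414 in NC and 374 and 784 in KD blastocysts. Fshr, Cyp19a1, Has2, Ptx3 and Dcn of this list were listed in neither table. Of 4 tested, Foxl2 was higher in both KD libraries in morulae (1.42, adjusted p = 0.402) and in blastocysts (1.32, adjusted p = 0.240). Vim, an intermediate filament gene, was so in blastocysts (2.28, adjusted p = 0.128). In morulae the other 3 overlapped, and 4 of 4 means were higher in KD. In blastocysts 2 of 4 means were lower in KD, with overlap, among them Col1a1 (-0.76, adjusted p = 0.744). Of all genes, 20.7% lay above in morulae and 24.6% in blastocysts. The other cells' part in the factors' values was not tested. Blood markers summed to 28.4 to 54.6 in morulae and 135 to 422 in blastocysts, and of 3 tested in blastocysts Laptm5 had 0.94 (adjusted p = 0.236), Hbb-bs -0.52 and Hba-a1 0.03. Oviduct and uterine markers summed to 20366 and 20645 in NC and 21333 and 24951 in KD blastocysts, most of it from Epcam (19790 ± 179 in NC), which the trophectoderm itself expresses. In morulae they summed to 7186 and 4413 in NC and 7462 and 5378 in KD. Muc1, a mucin of these epithelia, was 4.24 and 5.52 in NC and 34.5 and 21.6 in KD morulae (2.28 on the log2 scale, adjusted p = 0.408), and 34.9 and 17.7 in NC and 35.6 and 74.1 in KD blastocysts (1.02, adjusted p = 0.408). Both KD libraries were above NC at both stages, and neither difference passed.

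Genes with the most similar pattern were sought by Pearson's r of log2 values over the 8 libraries after the mean of each stage was subtracted. For Cdx2 they were Add1 (r = 0.99), Qdpr (0.98) and Gab2 (0.98), for Gata3 Phf12, Cdon and Tob1 (0.98 each), and for Hand1 Slc11a2, Fcgrt and Pheta1 (0.99 each). These are the highest values over all genes tested in both tables, the libraries of a stage share their scaling, and no test is attached.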

How the data were processed

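The authors deposited a normalized signal per gene (normalized abundance) in 1 table per stage. The submitters' processing notes list Salmon 0.14.1, DESeq2 and mm10 without saying what each was used for. Per the labels' protocols, libraries came from oligo(dT)-selected RNA after 12 to 15 PCR cycles. Groups follow the sample titles. Genes seen in a single library lay on whole steps in 95.0% to 100% of cases (tolerance 0.01), but low genes seen in all 4 libraries of a stage in only 4.8% to 22.4%, so whole reads were not recovered, no count test was run, and read numbers are approximate.

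Of the Ensembl identifiers 98.9% matched a symbol. Coordinates and exon lengths come from GENCODE vM21 (mm10). Values entered limma 3.58.1 (R 4.3.3) as log2(value + 1), with lmFit, eBayes with a mean-variance trend, and no replicate term. On simulated data 100 genes were changed by 1 on the log2 scale and 100 by 3. Limma recovered 64% and 96% of them among 13404 morula genes, with 16 false calls. Among 13651 blastocyst genes it recovered 78% and 92%, with 12 false calls. The simulated libraries varied independently, with a spread set by the mean level alone and no deviation shared by same-numbered libraries. These percentages therefore do not give the recovery in the real data.

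The members, gene lists and tests were chosen with earlier results of these data known. Named genes are the 10 members, Smarca5 and up to 3 members of each list and stage with the smallest p. The 3 genes most like each of Cdx2, Gata3 and Hand1 are named too. Pou5f1, Nanog, Epcam and the markers absent from the tables were named after their values were seen. Alternatives were pseudocounts of 0.5 and 5, no filter, a mean of 50, no trend, 2 other scalings, 1 fit of all 8 libraries, the replicate number as a block, leaving out each library, and another gene length.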

Additional observations from a re-analysis of the deposited data

How the results depend on the processing

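The labels give no pairing beyond a replicate number, and same-numbered libraries deviated together with a correlation across genes of 0.30 in morulae and 0.15 in blastocysts. With a replicate block, 892 genes were called in morulae (1 without it), 1208 in blastocysts (12) and 1 for the difference between stages (0). The block then called Gata3 (0.41, adjusted p = 0.0248) and Hand1 (0.60, adjusted p = 0.0293) in morulae and Gata2 (0.98, adjusted p = 0.00201), Gata3 (0.33, adjusted p = 0.0230) and Hand1 (1.59, adjusted p = 0.00201) in blastocysts, all higher in KD; it called no other member and none for the difference between stages. In each stage 8 of 10 members had the same order of replicates in NC and KD, as did 63.2% of all tested genes in morulae and 60.1% in blastocysts. Without a mean-variance trend 0 genes were called at either stage, in 1 fit of all 8 libraries 18 in morulae, and without a filter 27 in blastocysts. With 1 library left out, an arm of 1 is assumed to vary like the others, and 1 to 3 genes were called in blastocysts whichever library was left out, 1 in morulae, and 0 to 2 for the difference between stages. None of the members' values then passed; 23 changed sign and 125 did not. Their ranges in morulae were -0.28 to 0.47 for Cdx2, -0.99 to 0.23 for Eomes, -1.25 to 2.08 for Gata2, -0.30 to 0.94 for Tfap2a, -0.13 to 0.0638 for Tead4 and -0.0945 to 1.30 for Hand1. In blastocysts they were -0.38 to 1.08 for Eomes and -0.23 to 0.0399 for Tfap2c. For the difference between stages they were -0.27 to 0.49 for Cdx2, -0.00378 to 1.46 for Eomes, -1.10 to 2.23 for Gata2, -0.35 to 0.18 for Gata3 and -0.64 to 0.59 for Tfap2a. Quantile normalization turned Tead4 in morulae (0.00727) and Tfap2a between stages (0.0325). The causes were not tested. Without a filter Ascl2, otherwise not tested there, had 0.38 in blastocysts (SE 0.90, limma adjusted p = 0.874). Between stages it had -0.95 (SE 1.17, limma adjusted p = 0.961). Its blastocyst values were worth 2.5 to 10.4 reads at each library's step. In morulae Elf5 was worth as few as 2 reads at a library's step and Ascl2 5.1, and Gata2 8.6 and 12.9 in replicate 2 of NC and KD. The part of depth in these values was not tested.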
